A study of Mus musculus with 48 samples.

Results

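The genes described here are 41 mouse genes whose products copy DNA and supply the nucleotides for it. They were chosen by their symbols, with earlier results of these data known. All 41 have a probe on the array, out of 19057 genes with a probe. Each gene is given by its brightest probe, as log2 signal. Of the 41 genes, 37 lay above the background level of 5.63 in the mean of at least 1 group and were tested with 13057 genes in all, and 35 of them did so in a naive group. *Orc1* and *Prim1* passed this filter only through a tumor group, and *Gmnn*, *Pola1*, *Pole2* and *Slbp* passed it in no group and were not tested.

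Expression was measured on Illumina bead arrays in stromal cells of skin-draining lymph nodes (LNs). Fibroblastic reticular cells (FRCs, CD31- gp38+), blood endothelial cells (BECs, CD31+ gp38-), lymphatic endothelial cells (LECs, CD31+ gp38+) and double-negative cells (DN cells, with neither marker) were sorted from tumor mice and from naive mice. There were 8 groups of 3 biological replicates, with 2 array strips per replicate, and the question of the comparison was how stromal cells differ when a lymphoma grows in the LN. Tumor mice had received 200000 to 400000 Eμ-*Myc* lymphoma B cells by intravenous injection and had an average tumor load of 4% to 10% of lymphocytes. The Eμ-*Myc* transgene drives *Myc* from an immunoglobulin enhancer in the B cell lineage, so that it is carried by the injected cells and not by the stromal cells of the host. Naive mice are called wild-type controls in the labels, and neither strain nor age is given there for either group. Before the sort, cells with CD45 were depleted on beads, and the gates removed CD45+, Ter119+ and dead cells. Each array received 80 ng of RNA pooled from 4 to 6 sorts. The labels do not say that the replicates came from separate animals, so that p-values measure only the spread between these pools. In such pools a larger number of replicating cells and more RNA per cell cannot be told apart.

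Before a cell divides, origins of replication are licensed when the origin recognition complex, CDC6 and CDT1 load the ring-shaped MCM2-7 helicase onto DNA. CDC45 and the GINS complex then activate the helicase, polymerases copy both strands behind the sliding clamp PCNA, and ribonucleotide reductase, thymidine kinase and thymidylate synthase supply the deoxynucleotides. Transcription of most of these genes is low in resting cells and rises before S phase through E2F transcription factors, and stromal cells of the LN are known to divide when the organ expands.

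The start regions of the helicase genes are shown because subunits of MCM2-7 are textbook E2F targets, and that of *Tk1* because its change was among the widest of the 41 genes. RefSeq (build GRCm38.p6) gave windows of 300 bases, from 250 bases before to 50 bases after the start site, for 35 of the 41 genes. Capitals mark the words TTTCCCGC, TTTGGCGC and TTTCGCGC, which resemble E2F sites, and CCAAT, each on either strand.
Mcm2 (chr6:88898731-88899030, minus strand): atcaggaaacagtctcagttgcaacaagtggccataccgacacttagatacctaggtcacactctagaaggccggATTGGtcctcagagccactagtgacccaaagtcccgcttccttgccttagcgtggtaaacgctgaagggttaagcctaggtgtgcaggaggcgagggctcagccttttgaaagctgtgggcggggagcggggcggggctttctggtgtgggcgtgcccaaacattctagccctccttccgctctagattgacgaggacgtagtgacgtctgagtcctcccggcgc
Mcm3 (chr1:20820263-20820562, minus strand): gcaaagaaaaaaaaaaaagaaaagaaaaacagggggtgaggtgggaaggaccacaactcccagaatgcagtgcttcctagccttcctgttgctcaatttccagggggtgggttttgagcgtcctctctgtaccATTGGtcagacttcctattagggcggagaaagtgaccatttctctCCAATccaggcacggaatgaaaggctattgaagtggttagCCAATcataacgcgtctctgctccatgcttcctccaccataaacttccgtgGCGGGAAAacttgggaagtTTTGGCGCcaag
Mcm5 (chr8:75109259-75109558, plus strand): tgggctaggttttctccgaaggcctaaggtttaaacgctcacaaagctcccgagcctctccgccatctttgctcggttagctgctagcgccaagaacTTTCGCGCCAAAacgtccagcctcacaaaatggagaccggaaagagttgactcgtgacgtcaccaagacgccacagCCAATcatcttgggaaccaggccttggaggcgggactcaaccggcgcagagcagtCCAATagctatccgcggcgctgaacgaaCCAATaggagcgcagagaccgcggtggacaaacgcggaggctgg
Mcm6 (chr1:128359656-128359955, minus strand): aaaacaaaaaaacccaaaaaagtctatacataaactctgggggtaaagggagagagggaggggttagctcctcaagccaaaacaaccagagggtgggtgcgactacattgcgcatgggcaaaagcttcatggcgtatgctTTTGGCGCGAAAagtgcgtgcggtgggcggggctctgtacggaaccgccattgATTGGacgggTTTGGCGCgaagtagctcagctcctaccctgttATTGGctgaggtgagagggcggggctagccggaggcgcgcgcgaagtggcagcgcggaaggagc
Mcm7 (chr5:138171217-138171516, minus strand): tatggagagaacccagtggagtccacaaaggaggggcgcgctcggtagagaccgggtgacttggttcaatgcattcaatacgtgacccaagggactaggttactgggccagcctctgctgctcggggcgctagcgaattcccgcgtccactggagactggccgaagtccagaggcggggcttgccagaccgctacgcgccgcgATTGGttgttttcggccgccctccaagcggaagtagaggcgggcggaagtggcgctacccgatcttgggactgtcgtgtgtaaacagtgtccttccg
Mcm7 (chr5:138171834-138172133, minus strand): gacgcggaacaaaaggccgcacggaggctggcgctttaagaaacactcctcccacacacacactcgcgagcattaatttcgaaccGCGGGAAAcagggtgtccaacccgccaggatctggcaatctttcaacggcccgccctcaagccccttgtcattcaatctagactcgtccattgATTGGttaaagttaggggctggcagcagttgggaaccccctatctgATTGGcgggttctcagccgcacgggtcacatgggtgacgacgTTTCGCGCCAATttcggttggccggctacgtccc
Tk1 (chr11:117825965-117826264, minus strand): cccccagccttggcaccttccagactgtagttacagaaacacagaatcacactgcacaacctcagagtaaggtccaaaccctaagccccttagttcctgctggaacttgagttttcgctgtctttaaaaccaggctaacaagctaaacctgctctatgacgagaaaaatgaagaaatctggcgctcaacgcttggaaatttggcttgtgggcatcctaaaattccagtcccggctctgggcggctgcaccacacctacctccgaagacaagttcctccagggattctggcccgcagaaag
The window of *Tk1* holds none of these words. Those of *Mcm2* and the first of the 2 windows of *Mcm7* hold a CCAAT but no E2F-like word, and RefSeq gave no window for *Mcm4*. In *Mcm5* and *Mcm6* the words TTTCGCGC and TTTGGCGC overlap on opposite strands, and in the second window of *Mcm7* the word TTTCGCGC runs into a CCAAT. Any of TTTCCCGC, TTTGGCGC, TTTCGCGC and TTTGCCGC stood in a window of 13 of the 35 genes (37.1%) and in a window of 2.6% of all 27025 genes. CCAAT stood in a window of 22 of the 35 genes (62.9%) and of 41.1% of all genes, and CACGTG, the word bound by MYC, in 6 of the 35 (17.1%) and in 8.09% of all genes. These are matches of letters and not measured sites.

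The labelled cell types were checked against their markers first, by the summed linear signal of each marker list. FRC markers summed to between 167528 and 254376 in FRC tumor samples and between 202284 and 231455 in FRC naive samples, against at most 121304 in any other cell type. BEC markers summed to between 133004 and 172377 in BEC tumor samples and between 165463 and 194560 in BEC naive samples, and elsewhere to at most 78864. LEC markers summed to between 102839 and 119559 in LEC tumor samples and between 104962 and 110969 in LEC naive samples, against at most 95082 elsewhere. The DN markers did not set DN cells apart, since their sums reached 93182 in DN naive samples and 87405 in FRC tumor samples, where *Mcam* and *Des* were called higher. In BECs the DN markers summed to between 26582 and 36697 in tumor samples and between 11983 and 21999 in naive samples, with *Acta2* called higher. FRC markers had a median change of 1.24 in BECs with none called, and summed to between 14583 and 59109 in tumor samples and between 32702 and 58888 in naive samples. The part of such cells in the changes of the replication genes was not tested. *Pdpn*, which encodes gp38, was at 10.39, 11.1 and 12.38 in DN tumor samples, against 10.56, 13.43 and 9.75 in DN naive samples, all above background although the gate excluded the protein. *Pecam1*, which encodes CD31, was at 10.6, 10.57 and 11.11 in DN tumor samples, against 7.61, 9.15 and 5.74 in DN naive samples (adjusted p = 0.004), and 5 of the 8 BEC markers were higher in DN tumor samples.

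In 4 libraries the B cell genes stood apart, namely BEC tumor replicates 1 and 2 and DN tumor replicates 1 and 2. Of 15 B cell markers with a probe, 0 were called in FRCs, 2 in BECs, 0 in LECs and 7 in DN cells, all higher, with 1, 7, 1 and 9 higher in these cell types at an unadjusted limma p under 0.05. Their summed signal was 13449, 23465 and 3066 in BEC tumor replicates 1, 2 and 3, against 2676 to 3611 in BEC naive samples. In DN cells the sum was 38389, 25657 and 4798 in tumor replicates 1, 2 and 3, against 1621 to 4544 in naive samples. In FRCs it was 4191 to 5398 in tumor samples and 3050 to 3529 in naive samples, and in LECs 1913 to 3516 in tumor samples and 1924 to 2441 in naive samples. *Vpreb3*, a gene of the B cell lineage, stood at 11.2, 12.12 and 7.64 in BEC tumor samples, against 5.78, 5.8 and 5.61 in BEC naive samples. Of 13 leukocyte markers, 1 was called higher in FRCs, 0 in BECs, 0 in LECs and 6 in DN cells. At an unadjusted limma p under 0.05, 5, 5, 0 and 7 were higher in these cell types. Leukocyte sums were 5655 to 13367 in FRC tumor samples against 2483 to 3918 in FRC naive samples, without overlap. The sums did not overlap in LECs (8312 to 10761 against 6649 to 8192) or DN cells (11325 to 78222 against 6837 to 8745). In BECs they overlapped, at 7887 to 52087 in tumor samples against 7916 to 9323 in naive samples. *Ptprc*, which encodes CD45, lay below background in every FRC, BEC and LEC sample. This included BEC tumor replicates 1 and 2, where the B cell sums were 13449 and 23465. A *Ptprc* signal below background thus does not show that leukocytes were absent. In FRCs 3 of the 15 B cell markers, *Ms4a1*, *Pax5* and *Bank1*, lay below background in every sample. Of 11 T cell markers, *Lat*, *Cd2* and *Il7r* were called higher in DN cells and none elsewhere (0 at an unadjusted p under 0.05 in FRCs, BECs and LECs). Of 14 myeloid markers, *Csf1r* and *Cd14* were called higher in FRCs and none elsewhere (3, 5, 0 and 3 unadjusted in FRCs, BECs, LECs and DN cells). Myeloid sums were 3666 to 5317 in FRC tumor samples against 1400 to 2107 in FRC naive samples. They overlapped in BECs (2006 to 17967 against 1947 to 2490), LECs (2160 to 3185 against 2777 to 4320) and DN cells (3219 to 31019 against 2496 to 12563). The part of these leukocyte and myeloid genes in the changes of the replication genes was not tested.

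Replication genes were higher in tumor samples in all 4 cell types. In FRCs 31 of the 41 genes were called higher, in BECs 29, in LECs 11 and in DN cells 29 (adjusted p under 0.05), and none was called lower. The median change over all 41 genes was 1.64 in FRCs (3.12-fold), 1.56 in BECs (2.95-fold), 1.13 in LECs (2.19-fold) and 1.5 in DN cells (2.83-fold) on the log2 scale. Over all genes tested the median change was -0.03 in FRCs, -0.03 in BECs, 0 in LECs and -0.07 in DN cells. Of all genes tested, 6.43% were called higher and 4.14% lower in FRCs, 3.61% and 1.49% in BECs, 0.797% and 0.138% in LECs, and 4.8% and 2.63% in DN cells. Among the 35 genes above background in a naive group, so without *Orc1* and *Prim1*, 30 were called in FRCs, 28 in BECs, 11 in LECs and 29 in DN cells. At an unadjusted limma p under 0.05, 35, 35, 28 and 35 of the genes were higher in FRCs, BECs, LECs and DN cells, and 0 were lower in each.

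Every tumor replicate lay above every naive replicate for 36 of the 41 genes in FRCs, 35 in BECs, 31 in LECs and 29 in DN cells. The same held for 19.6% of all genes tested in FRCs, 13% in BECs, 11.3% in LECs and 8% in DN cells. Among the 37 genes tested, so without *Pole2* in LECs, the counts were 36, 35, 30 and 29 in FRCs, BECs, LECs and DN cells. They include *Prim1* in FRCs and LECs, where all its samples lay below background. *Cdc45*, *Cdt1*, *Chaf1a*, *Gins1*, *Gins2*, *Mcm5*, *Mcm7*, *Rfc4*, *Tk1*, *Tyms* and *Uhrf1* were called in all 4 cell types, 12 genes in 3, 8 genes in 2 and 4 genes (*Dut*, *Pcna*, *Pola2* and *Rpa3*) in 1. *Orc1* and *Rfc2* were tested and called in none.

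**Figure D1:**
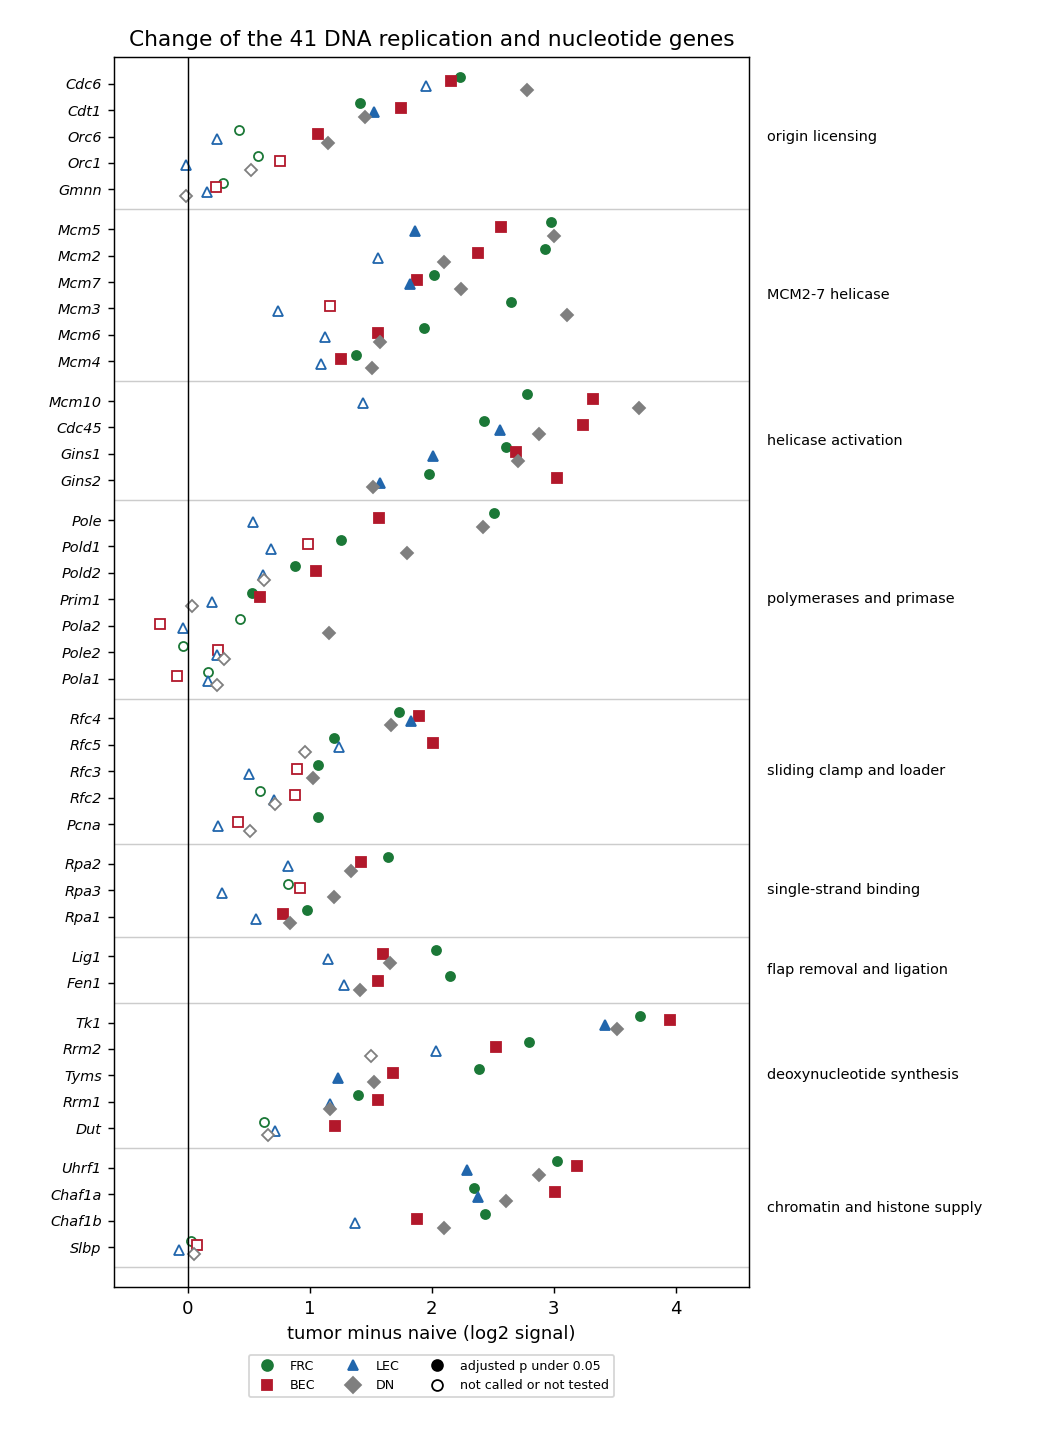
Change of each of the 41 genes in each cell type, as tumor minus naive on the log2 scale (x axis), with the genes grouped by role (y axis). Filled symbols mark an adjusted p under 0.05 and open symbols genes not called or not tested. Nearly all symbols lie right of 0, *Tk1* lies farthest right in BECs at 3.95, and *Pola2* in BECs lies left at -0.23.

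Single replicates differed in how far the genes stood above naive. The median of the 41 genes against the naive mean was 1.67, 1.83 and 1.36 in FRC tumor replicates 1, 2 and 3, and 1.65, 1.86 and 0.91 in BEC tumor replicates 1, 2 and 3. It was 0.76, 1.5 and 1.06 in LEC tumor replicates 1, 2 and 3, and 2.18, 1.57 and 0.65 in DN tumor replicates 1, 2 and 3. Naive replicates stayed between -0.15 and 0.11 in all cell types. The medians of the B cell markers in the same tumor replicates were 0.34, 0.33 and 0.8 in FRCs, 2.11, 2.76 and -0.03 in BECs, -0.08, 0.51 and 0.11 in LECs, and 2.94, 2.06 and 0.34 in DN cells. In BECs, LECs and DN cells the tumor replicates thus stood in the same order by both medians, from lowest to highest. In FRCs the order was reversed, and the replicate with the highest B cell median had the lowest median of replication genes. These orders were not tested.

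In BEC tumor replicate 3 the median of the B cell markers stood at the naive level, although *Vpreb3* lay above all 3 naive samples. Of the 41 replication genes, 37 lay above all 3 naive samples in this replicate, which held for 26% of all genes tested. In LEC tumor replicate 1, with the B cell median at the naive level too, it was 33 of 41 genes (27.1% of all genes). In DN tumor replicate 3 it was 30 of 41 (21.1% of all genes). Without BEC tumor replicates 1 and 2 the median change in BECs was 0.91 and 0 genes were called, with 19 higher at an unadjusted limma p under 0.05. Without DN tumor replicates 1 and 2 the median change in DN cells was 0.65 and 3 genes were called, with 17 higher at an unadjusted p under 0.05. Both settings were chosen after seeing the data, and each leaves 1 tumor sample that is assumed to vary like the others. The part of B cell RNA in the changes was not tested beyond these values.

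**Figure D2:**
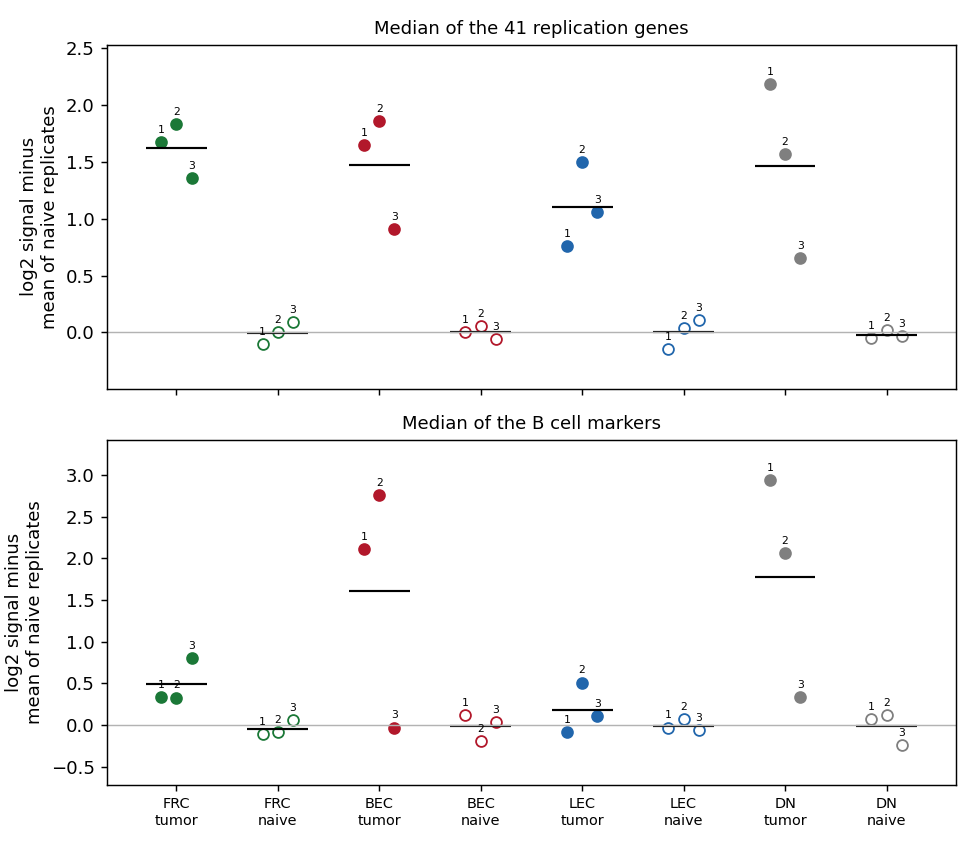
Median log2 signal of the 41 replication genes (top) and of the B cell markers (bottom) in each replicate, each gene first set against the mean of its naive replicates (y axes). Filled points are tumor and open points naive replicates, numbers give the replicate, and bars give group means. BEC tumor 3 and LEC tumor 1 lie near 0 in the lower panel and at 0.91 and 0.76 in the upper one.

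The counts rested on single libraries in 3 cell types. In BECs 14 genes were called without tumor replicate 2, and in DN cells 17 without tumor replicate 1. In LECs 1 gene was called without tumor replicate 2, 6 without tumor replicate 3, 2 without naive replicate 1 and 5 without naive replicate 2. With each cell type fitted alone, 14 genes were called in BECs and 0 in DN cells, where 30 were higher at an unadjusted limma p under 0.05.

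Genes of deoxynucleotide synthesis included *Tk1*, which had the widest change of the 41 genes in FRCs, BECs and LECs. Of the 5 genes, 4 were called in FRCs, 5 in BECs, 2 in LECs and 3 in DN cells, with median changes of 2.39, 1.68, 1.23 and 1.5. *Tk1* encodes thymidine kinase 1, which phosphorylates thymidine taken up or recycled by the cell. *Tk1* signal was 11.08, 11.18 and 11 in FRC tumor samples, against 6.79, 7.05 and 8.3 in FRC naive samples (change 3.71 ± 0.48, SE, 13.1-fold, adjusted p = 0.0001). In BECs *Tk1* was at 11.21, 11.44 and 10.4 in BEC tumor samples, against 6.87, 7.67 and 6.66 in BEC naive samples (change 3.95 ± 0.48, SE, 15.5-fold, adjusted p = 0.00017). All tumor values of *Tk1* in FRCs and BECs lay more than 2 log2 units above the highest naive value of their cell type. In LECs *Tk1* was at 9.92, 11.32 and 10.41 in LEC tumor samples, against 6.61, 7.36 and 7.41 in LEC naive samples (change 3.42 ± 0.48, SE, 10.7-fold, adjusted p = 0.0013). In DN cells *Tk1* was at 11.27, 10.34 and 9.71 in DN tumor samples, against 6.17, 7.68 and 6.9 in DN naive samples (change 3.52 ± 0.48, SE, 11.4-fold, adjusted p = 0.00021). The array carries 3 fainter *Tk1* probes. The brightest of these read higher by 2.08 in FRCs, 2.63 in BECs, 1.78 in LECs and 1.44 in DN cells, and the other two by 1.41 and 1.31 in FRCs, but by 0.05 and 0.47 in BECs, 0.1 and 0.2 in LECs and 0.28 and 0.08 in DN cells, where their group means lay below background. With the mean of all kept probes the change of *Tk1* was 2.13, 1.77, 1.38 and 1.33 in FRCs, BECs, LECs and DN cells, and it passed in each.

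*Tyms* encodes thymidylate synthase, which makes thymidylate from deoxyuridylate, and was the gene with the smallest adjusted p of the list in FRCs. *Tyms* was at 11.6, 11.79 and 10.95 in FRC tumor samples, against 8.92, 9.09 and 9.16 in FRC naive samples (change 2.39 ± 0.25, SE, 5.24-fold, adjusted p = 1.6e-05). In BECs it was at 11.99, 11.96 and 11.49 in BEC tumor samples, against 10.27, 10.13 and 10.02 in BEC naive samples (change 1.68 ± 0.25, SE, 3.2-fold, adjusted p = 0.00056). The groups did not overlap in either cell type. In LECs *Tyms* was at 10.93, 11.18 and 11.14 in LEC tumor samples, against 9.87, 9.65 and 10.04 in LEC naive samples (change 1.23 ± 0.25, SE, 2.34-fold, adjusted p = 0.017). In DN cells it was at 11.8, 11.55 and 11.02 in DN tumor samples, against 10.32, 9.34 and 10.13 in DN naive samples (change 1.53 ± 0.25, SE, 2.88-fold, adjusted p = 0.00097). With the mean of all kept probes the change of *Tyms* was 1.25 in FRCs, 0.93 in BECs and 0.56 in DN cells, and passed in each. In LECs its change lay between 0.82 and 1.32 over 21 alternatives and lost the call in 7 of them. *Rrm1* and *Rrm2* encode the large and small subunits of ribonucleotide reductase. *Rrm2* rose by 2.8 in FRCs (adjusted p = 0.002) and 2.53 in BECs (0.0068), while its differences of 2.04 in LECs and 1.5 in DN cells did not pass. *Dut*, whose enzyme keeps uracil out of DNA, passed in BECs with a change of 1.21 (adjusted p = 0.024) and had differences of 0.63, 0.72 and 0.66 in FRCs, LECs and DN cells.

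The 6 subunits of the MCM2-7 helicase, which unwinds DNA at the fork, were all called in FRCs and in DN cells, 5 of them in BECs and 2 in LECs. Their median change was 2.34 in FRCs, 1.72 in BECs, 1.34 in LECs and 2.17 in DN cells. *Mcm5* was at 12.67, 12.93 and 12.36 in FRC tumor samples, against 9.44, 9.63 and 9.94 in FRC naive samples (change 2.98 ± 0.34, SE, 7.91-fold, adjusted p = 2.7e-05). In BECs *Mcm5* was at 13.28, 13.6 and 12.29 in BEC tumor samples, against 10.66, 10.3 and 10.5 in BEC naive samples (change 2.57 ± 0.34, SE, 5.94-fold, adjusted p = 0.00025). Tumor replicate 3 had the lowest value among the tumor samples of both cell types. In LECs *Mcm5* was at 12.15, 12.97 and 12.31 in LEC tumor samples, against 10.42, 10.52 and 10.92 in LEC naive samples (change 1.86 ± 0.34, SE, 3.63-fold, adjusted p = 0.0073). In DN cells it was at 13.24, 12.76 and 11.76 in DN tumor samples, against 9.78, 9.42 and 9.57 in DN naive samples (change 3 ± 0.34, SE, 7.99-fold, adjusted p = 3.8e-05).

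*Mcm2* was at 10.33, 10.32 and 10.49 in FRC tumor samples, against 6.91, 7.56 and 7.88 in FRC naive samples (change 2.93 ± 0.45, SE, 7.61-fold, adjusted p = 0.00045). *Mcm7* in LECs was at 8.62, 9.65 and 9.6 in LEC tumor samples, against 7.15, 7.31 and 7.95 in LEC naive samples (change 1.82 ± 0.38, SE, 3.53-fold, adjusted p = 0.022). For *Mcm2* the 3 FRC tumor samples lay close together, while naive replicate 1 lay below the other naive samples. The changes of *Mcm4* were 1.38 in FRCs, 1.26 in BECs and 1.51 in DN cells, and those of *Mcm6* were 1.94, 1.56 and 1.58, all called. In LECs *Mcm2*, *Mcm4* and *Mcm6* differed by 1.56, 1.09 and 1.13 and were not called, although every tumor sample lay above every naive sample.

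*Mcm3* varied more between cell types than any other of the 41 genes, with changes that ran over 2.37 log2 units. *Mcm3* was at 8.96, 9.07 and 8.34 in FRC tumor samples, against 6.01, 6.36 and 6.07 in FRC naive samples (change 2.65 ± 0.34, SE, 6.26-fold, adjusted p = 0.00011). In DN cells it was at 9.9, 9.15 and 7.94 in DN tumor samples, against 5.5, 6.34 and 5.81 in DN naive samples (change 3.11 ± 0.34, SE, 8.65-fold, adjusted p = 3.8e-05). Naive signal of *Mcm3* was thus low in both cell types, with 1 DN naive sample below background. In BECs *Mcm3* was at 10.04, 10.11 and 9.45 in BEC tumor samples, against 8.68, 8.61 and 8.79 in BEC naive samples (difference 1.17 ± 0.34, SE, adjusted p = 0.053). In LECs it was at 8.82, 9.26 and 8.83 in LEC tumor samples, against 8.08, 8.22 and 8.4 in LEC naive samples (difference 0.74 ± 0.34, SE, adjusted p = 0.55). Every tumor sample lay above every naive sample here too, and naive signal in BECs and LECs was higher than in naive FRCs and DN cells. Each cell type was hybridised on a slide of its own, so that levels between cell types and between slides cannot be told apart.

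**Figure D3:**
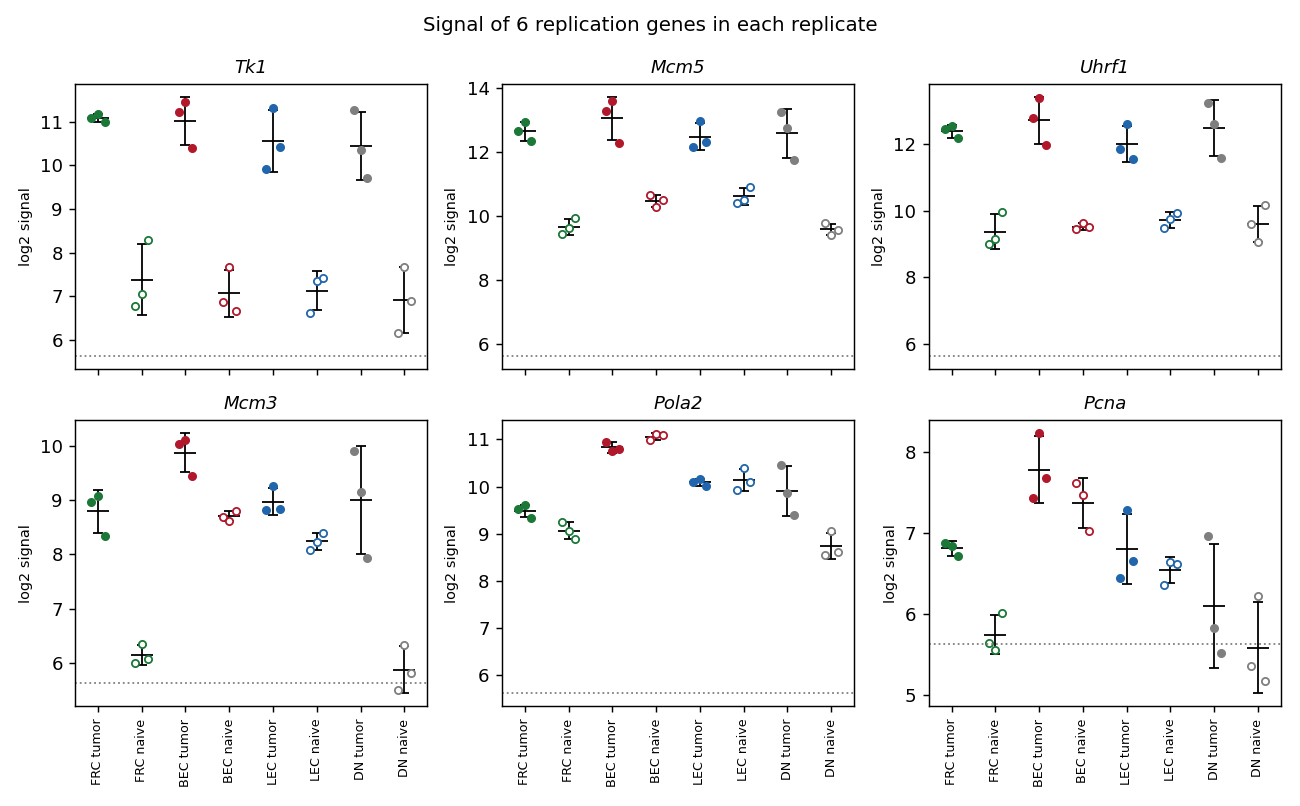
Log2 signal (y axes) of *Tk1*, *Mcm5*, *Uhrf1*, *Mcm3*, *Pola2* and *Pcna* in each replicate of the 8 groups, with filled points for tumor and open points for naive samples. Bars are means with SDs (n = 3) and the dotted line is the background level of 5.63. *Mcm3* is low in naive FRCs and DN cells, and *Pola2* in BECs is the only panel group in which all tumor points lie below all naive points.

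The factors that switch the helicase on were called in all cell types but for *Mcm10* in LECs. All 4 genes were called in FRCs, BECs and DN cells and 3 in LECs, and the median changes were 2.52, 3.13, 2.8 and 1.79 in FRCs, BECs, DN cells and LECs. *Mcm10*, which joins the helicase when it is activated, was in BECs at 11.12, 11.97 and 10.06 in BEC tumor samples, against 7.35, 7.77 and 8.08 in BEC naive samples (change 3.32 ± 0.51, SE, 9.96-fold, adjusted p = 0.00067). In DN cells, where it had the widest change of the 41 genes, *Mcm10* was at 11.71, 11.18 and 9.31 in DN tumor samples, against 6.95, 7.11 and 7.05 in DN naive samples (change 3.7 ± 0.51, SE, 13-fold, adjusted p = 0.00023). The 3 DN naive values lay close together, whereas the tumor values spread widely, with replicate 3 the lowest. With the mean of all kept probes its change was 2.15 in BECs and 2.26 in DN cells, both called. It was 2.33 in BECs without BEC tumor replicates 1 and 2 and 2.28 in DN cells without DN tumor replicates 1 and 2, and passed in neither. In LECs *Mcm10* differed by 1.44 and was not called (adjusted p = 0.3).

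*Cdc45* was in BECs at 9.83, 9.84 and 8.29 in BEC tumor samples, against 6.13, 6.02 and 6.1 in BEC naive samples (change 3.24 ± 0.5, SE, 9.42-fold, adjusted p = 0.00074). In LECs *Cdc45* was at 8.52, 9.98 and 9.03 in LEC tumor samples, against 6.26, 6.96 and 6.62 in LEC naive samples (change 2.56 ± 0.5, SE, 5.91-fold, adjusted p = 0.012). Naive *Cdc45* signal was faint in both, and tumor replicate 3 in BECs and replicate 1 in LECs were the lowest of the tumor samples. *Gins1* and *Gins2* encode subunits of GINS, which binds the helicase together with CDC45. *Gins1* was in LECs at 8.85, 9.13 and 8.48 in LEC tumor samples, against 6.66, 6.68 and 7.1 in LEC naive samples (change 2.01 ± 0.42, SE, 4.03-fold, adjusted p = 0.02). In DN cells it was at 10.33, 9.79 and 8.34 in DN tumor samples, against 6.31, 6.56 and 7.47 in DN naive samples (change 2.71 ± 0.42, SE, 6.53-fold, adjusted p = 0.0006). The groups did not overlap, although DN naive replicate 3 lay above the other naive samples, and without DN tumor replicates 1 and 2 the change of *Gins1* was 1.56 and not called. *Gins2* was in BECs at 9.93, 9.93 and 8.81 in BEC tumor samples, against 6.59, 6.55 and 6.43 in BEC naive samples (change 3.03 ± 0.35, SE, 8.19-fold, adjusted p = 0.00017).

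Of the 5 genes of origin licensing, 2 were called in FRCs, 3 in BECs, 1 in LECs and 3 in DN cells. Their median change was 0.58 in FRCs, 1.07 in BECs, 0.24 in LECs and 1.15 in DN cells. *Cdt1*, which brings the helicase to the origin, was the gene called in all 4, with changes of 1.41 in FRCs, 1.75 in BECs, 1.53 in LECs and 1.45 in DN cells. *Cdc6*, an ATPase that works with the origin recognition complex, was in DN cells at 10.32, 9.6 and 7.83 in DN tumor samples, against 6.48, 6.88 and 6.04 in DN naive samples (change 2.78 ± 0.47, SE, 6.88-fold, adjusted p = 0.0011). This change was 1.48 with the mean of all kept probes, and 1.37 and not called without DN tumor replicates 1 and 2. *Cdc6* also rose by 2.23 in FRCs and 2.16 in BECs, and its difference of 1.95 in LECs missed the threshold (adjusted p = 0.052). *Orc6*, a subunit of the origin recognition complex, was called in BECs (1.07) and DN cells (1.15) and differed by 0.42 in FRCs and 0.24 in LECs. *Orc1*, the largest subunit of that complex, was faint, with 2 of 3 tumor samples above background in FRCs and in BECs, 1 in DN cells, and none of the naive samples in any cell type. *Gmnn* encodes geminin, the inhibitor of CDT1, and was below background in all 24 samples.

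Of 7 genes of polymerases and primase, 4 were called in FRCs, 3 in BECs, 0 in LECs and 3 in DN cells, and without *Prim1* 3, 2, 0 and 3. The median change was 0.53, 0.59, 0.24 and 0.63 over all 7, with *Pola1* and *Pole2* at background, and 0.88, 0.99, 0.54 and 1.16 over the 5 tested. In LECs 1 of them was higher at an unadjusted limma p under 0.05. *Pole*, the catalytic subunit of the leading-strand polymerase epsilon, rose by 2.51 in FRCs (adjusted p = 0.0012), 1.57 in BECs (0.041) and 2.42 in DN cells (0.0019). *Pold1*, the catalytic subunit of polymerase delta, rose by 1.26 in FRCs (0.027) and 1.8 in DN cells (0.004), and *Pold2*, an accessory subunit, by 0.88 in FRCs (0.026) and 1.05 in BECs (0.016). *Prim1*, the primase subunit that makes RNA primers, was called in FRCs (adjusted p = 0.021) although all 6 samples there lay below background, and in BECs (0.02) with 1 tumor sample above it, so that it has no measured fold in FRCs and at least 1.01-fold in BECs. Since it passed the filter only through BEC tumor samples, its calls describe a signal at the background level and are no measured rise. *Pola1* and *Pole2* gave no test, and 1 BEC tumor sample of *Pole2* lay above background.

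*Pola2*, the accessory subunit of polymerase alpha, did not follow the other genes. In BECs it was at 10.95, 10.76 and 10.79 in BEC tumor samples, against 10.98, 11.11 and 11.1 in BEC naive samples (difference -0.23 ± 0.21, SE, adjusted p = 0.59). In DN cells it was at 10.45, 9.86 and 9.39 in DN tumor samples, against 8.55, 9.05 and 8.61 in DN naive samples (change 1.16 ± 0.21, SE, 2.24-fold, adjusted p = 0.0016). Tumor samples thus lay below all naive samples in BECs and above all of them in DN cells. *Pola2* differed by 0.43 in FRCs (adjusted p = 0.19) and by -0.04 in LECs (adjusted p = 1).

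Of the sliding clamp and its loader, 4 of 5 genes were called in FRCs, 2 in BECs, 1 in LECs and 2 in DN cells, with median changes of 1.07, 0.9, 0.71 and 0.96. *Rfc4*, a subunit of the clamp loader, was called in all 4, with changes of 1.73 in FRCs, 1.9 in BECs, 1.83 in LECs and 1.67 in DN cells. *Rfc5* rose by 1.2 in FRCs and 2.01 in BECs. *Rfc3* was below background in the naive samples of FRCs and DN cells. It was at least 1.86-fold higher in FRC tumor samples (adjusted p = 0.03). In DN tumor samples (6.87, 5.57 and 5.24) it was at least 1.2-fold higher (adjusted p = 0.045), but only replicate 1 lay above background. *Rfc2* was not called in any cell type by its brightest probe, with differences between 0.59 and 0.88. Its fainter probes, not tested singly, read higher by 1 to 1.17 in FRCs and 1.08 to 1.36 in DN cells. They read higher by 0.67 to 0.76 in BECs and 0.06 to 0.56 in LECs. *Pcna*, the clamp itself and a common marker of S phase, was read by a faint probe at 6.88, 6.84 and 6.72 in FRC tumor samples, against 5.65, 5.56 and 6.02 in FRC naive samples (change 1.07 ± 0.33, SE, adjusted p = 0.042). It differed by 0.41 in BECs, 0.25 in LECs and 0.51 in DN cells, where the groups overlapped.

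*Rpa1*, *Rpa2* and *Rpa3* form replication protein A, which coats single-stranded DNA. *Rpa1* rose by 0.98 in FRCs, 0.78 in BECs and 0.84 in DN cells, and *Rpa2* by 1.64, 1.42 and 1.34. A fainter *Rpa2* probe differed by -0.29 in FRCs, 0.09 in BECs, -0.02 in LECs and 0.92 in DN cells. Another differed by 1.02, 1.06, 1.49 and 1.04 in these cell types. *Rpa3* passed in DN cells only (1.2, adjusted p = 0.014), next to 0.071 in FRCs and 0.066 in BECs, and none of the 3 passed in LECs, where the differences ran between 0.28 and 0.82 and 2 had an unadjusted limma p under 0.05. *Fen1* and *Lig1* encode the nuclease that trims Okazaki fragments and the ligase that joins them. *Fen1* was at 11.4, 11.41 and 10.99 in FRC tumor samples, against 8.96, 9 and 9.39 in FRC naive samples (change 2.15 ± 0.31, SE, 4.43-fold, adjusted p = 0.00031). *Fen1* and *Lig1* were both called in FRCs, BECs and DN cells, with *Lig1* changes of 2.04, 1.6 and 1.66, and both differed without a call in LECs by 1.28 and 1.15.

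Of the 4 genes of chromatin and histone supply behind the fork, 3 were called in FRCs, BECs and DN cells each and 2 in LECs, with median changes of 2.4, 2.44, 2.36 and 1.83. *Uhrf1* encodes a protein that recognises hemimethylated DNA and brings the maintenance methyltransferase to it. *Uhrf1* was at 12.45, 12.56 and 12.18 in FRC tumor samples, against 8.99, 9.14 and 9.96 in FRC naive samples (change 3.03 ± 0.4, SE, 8.15-fold, adjusted p = 0.00013). In BECs *Uhrf1* was at 12.78, 13.39 and 11.98 in BEC tumor samples, against 9.44, 9.64 and 9.5 in BEC naive samples (change 3.19 ± 0.4, SE, 9.13-fold, adjusted p = 0.00017). No tumor value came within 2 log2 units of a naive value in these cell types. In LECs *Uhrf1* was at 11.86, 12.61 and 11.57 in LEC tumor samples, against 9.48, 9.74 and 9.94 in LEC naive samples (change 2.29 ± 0.4, SE, 4.91-fold, adjusted p = 0.0065). In DN cells it was at 13.24, 12.62 and 11.58 in DN tumor samples, against 9.61, 9.05 and 10.16 in DN naive samples (change 2.88 ± 0.4, SE, 7.34-fold, adjusted p = 0.00025).

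*Chaf1a* and *Chaf1b* encode subunits of chromatin assembly factor 1, which places new histones on copied DNA. *Chaf1a* was in BECs at 10.22, 10.65 and 9.17 in BEC tumor samples, against 6.67, 7.35 and 7 in BEC naive samples (change 3.01 ± 0.46, SE, 8.06-fold, adjusted p = 0.00067). In LECs *Chaf1a* was at 9.2, 10.42 and 9.99 in LEC tumor samples, against 7.33, 7.53 and 7.6 in LEC naive samples (change 2.38 ± 0.46, SE, 5.2-fold, adjusted p = 0.012). *Chaf1b* was in FRCs at 10.51, 10.6 and 10.01 in FRC tumor samples, against 7.72, 7.66 and 8.42 in FRC naive samples (change 2.44 ± 0.36, SE, 5.42-fold, adjusted p = 0.00036). The groups were apart for both genes, and *Chaf1b* differed by 1.37 in LECs without a call (adjusted p = 0.093). *Slbp*, which encodes the protein that binds the stem-loop of histone mRNAs, lay below background in all 24 samples.

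Whether the tumor-related change differed between cell types was tested gene by gene in the same model. Of the 37 genes tested, LECs had the smallest change for 26 and the widest for none, and BECs had the widest for 14, FRCs for 12 and DN cells for 11. The changes in LECs minus those in FRCs had a median of -0.54 over the 37 genes tested, those in LECs minus DN cells -0.42, and those in BECs minus LECs 0.46, against 0.02, 0.05 and -0.01 over all genes. By adjusted p no gene differed between BECs and FRCs (0.934% of all genes did), BECs and LECs (0.00766%), LECs and FRCs (0.613%) or FRCs and DN cells (1.26%), with 3, 4, 6 and 3 genes at an unadjusted limma p under 0.05. The lower count of calls in LECs than in FRCs or BECs is therefore not shown to be a difference between cell types. For BECs minus DN cells 1 gene differed, against 0.437% of all genes, and for LECs minus DN cells 1 gene, against 0.26%. At an unadjusted limma p under 0.05, 5 and 8 genes differed for these pairs, and all 8 had the smaller change in LECs.

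*Pola2* was the gene that differed between BECs and DN cells, with a change of -0.23 in BECs and 1.16 in DN cells (difference -1.39 ± 0.29, SE, 95% interval -2 to -0.78, adjusted p = 0.037). *Mcm3* differed between LECs and DN cells, with a change of 0.74 in LECs and 3.11 in DN cells (difference -2.38 ± 0.49, SE, 95% interval -3.39 to -1.36, adjusted p = 0.042). The change of *Mcm3* in BECs minus that in DN cells was -1.94 (adjusted p = 0.097) and in LECs minus FRCs -1.91 (adjusted p = 0.08). B cell markers were higher in 2 of the 3 DN tumor samples, and their part in these differences was not tested. With the replicate number as a block, neither difference passed and the count was 0 for both pairs of cell types.

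Likeness of the genes over the samples was measured for the 37 tested genes. With every value set against the mean of its cell type, they correlated with the median of the 41 genes over the 24 replicates at r between 0.52 (*Pola2*) and 0.99 (*Mcm5* and *Uhrf1*). This is a description, since the replicates share the contrast between tumor and naive mice and the genes are part of the median. *Pcna* (0.73), *Prim1* (0.77) and *Orc1* (0.78) came next above *Pola2*. Outside the list the most alike genes were *Birc5* (0.99), *Top2a* (0.986), *Nusap1* (0.985), *H2ac11* (0.985), *Cdca8* (0.983) and *Pclaf* (0.983). For 16 of the genes the array carries 31 further probes above background, and these had the sign of the main probe for 30 in FRCs, 31 in BECs, 28 in LECs and 29 in DN cells, with smaller median changes of 1.1, 0.67, 0.54 and 1.04.

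Further genes of the same pathways rose as well. Of 37 other replication factors, 16 were called higher in FRCs, 11 in BECs, 3 in LECs and 14 in DN cells and 0 lower, with median changes of 0.65, 0.5, 0.32 and 0.75. *Clspn*, whose product claspin links the fork to checkpoint kinases, was at 10.13, 10.33 and 9.55 in FRC tumor samples, against 6.36, 6.37 and 6.89 in FRC naive samples (change 3.46 ± 0.49, SE, adjusted p = 0.00021). *Clspn* also rose by 3.3 in BECs, 2.94 in LECs and 4.39 in DN cells. *Wdhd1*, which ties the helicase to polymerase alpha, rose by 1.54, 1.92, 1.2 and 2.11 in FRCs, BECs, LECs and DN cells, and *Chtf18*, part of an alternative clamp loader, by 2.61, 2.38, 2.3 and 2.63. *Dnmt1*, the maintenance DNA methyltransferase, was called higher in FRCs, BECs and DN cells, with a change of 1.34 in DN cells (adjusted p = 0.0035).

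Of 27 other enzymes of nucleotide synthesis, 8 were called higher in FRCs, 13 in BECs, 0 in LECs and 9 in DN cells, with median changes of 0.71, 0.82, 0.39 and 0.73, and 0 were called lower. In LECs 8 were higher and 2 lower at an unadjusted limma p under 0.05. *Mthfd1*, an enzyme of folate metabolism, rose by 0.82 in FRCs, 1.32 in BECs and 0.82 in DN cells. *Gmps*, which makes guanylate, rose by 1.27 in FRCs (adjusted p = 0.00045), and *Gart* and *Dtymk*, of purine and thymidylate synthesis, by 1.15 and 0.87 in DN cells.

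Among 29 regulators of entry into S phase, 6 were called higher in FRCs, 5 in BECs, 1 in LECs and 6 in DN cells. *E2f1*, a transcription factor of replication genes, was at 11.1, 11.6 and 10.23 in BEC tumor samples, against 8.88, 9.34 and 8.63 in BEC naive samples (change 2.03 ± 0.39, SE, adjusted p = 0.0046). It rose by 2 in LECs and 1.57 in DN cells, and differed by 0.69 in FRCs (adjusted p = 0.29). *Ccnd1*, cyclin D1, rose by 1.49 in FRCs. *Cdkn1c*, an inhibitor of cyclin-dependent kinases, was the gene called lower, at 12.86, 12.73 and 13.53 in FRC tumor samples, against 14.8, 14.69 and 14.34 in FRC naive samples (change -1.57 ± 0.35, SE, adjusted p = 0.0079) and at 10.58, 10.52 and 11.92 in BEC tumor samples, against 12.49, 12.88 and 12.1 in BEC naive samples (change -1.48 ± 0.35, SE, adjusted p = 0.019). The groups did not overlap in either. *Myc*, singled out after its values were seen, was not called in any cell type, with differences of -0.21 in FRCs, 0.18 in BECs, -0.64 in LECs and -0.11 in DN cells.

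Mitosis genes were called higher for 19 of 30 in FRCs, 18 in BECs, 15 in LECs and 18 in DN cells. Median changes over all 30, of which 21 were tested, were 2.5, 2.42, 1.9 and 2.51. *Cdk1*, the kinase that drives entry into mitosis, rose by 3.51 in FRCs, 3.34 in BECs, 3.59 in LECs and 3.8 in DN cells. In LECs the call thus covered 15 of 30 mitosis genes and 11 of 41 replication genes, which was not tested as a difference between the lists.

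**Figure D4:**
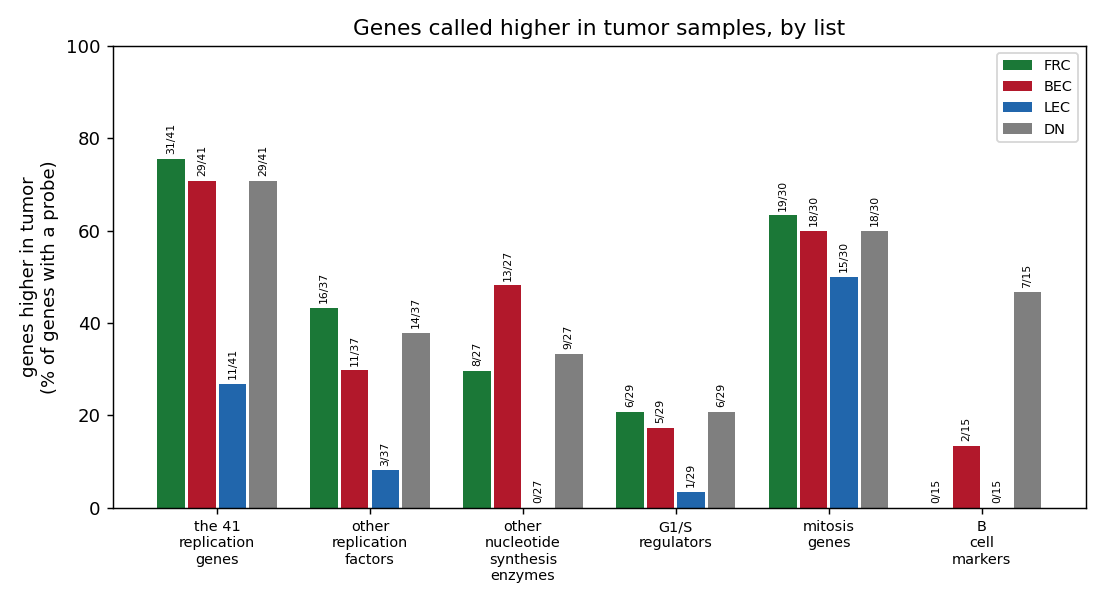
Share of genes with a probe that were called higher in tumor samples (y axis, %), for the 41 replication genes and 5 further lists (x axis), in FRCs, BECs, LECs and DN cells (colors). Numbers on the bars give called genes and genes with a probe. Within each cell type the bars of the replication and mitosis genes are the tallest, and the B cell markers have called genes in BECs and DN cells.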

How the data were processed

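RNA of 24 replicates was read on 48 strips of Illumina bead arrays. The main measurements are log2 values that the authors had summarized per probe and strip (45281 probes), and how they were background corrected and normalized is not given in the sources used here. Bead intensities, deposited by the authors strip by strip with a local background already subtracted, carry codes in place of probe names and served only for alternatives. For these, 45156 of 45160 probes were linked to a code by their profile over the strips.

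Strips were quantile normalized and the strips of each replicate averaged. Background had a mode of 4.99, and the level of 5.63 lies 3 robust SDs (0.21) above it. Probes with 1 gene symbol (34885) were used, and those with several (18) or none (10378) left out. The brightest probe with a group mean above the level stood for its gene in the tests, and where no probe passed, the brightest of all was described. Where a group had no sample above the level, the level replaced it and the fold is a lower bound. No fold is given where neither group had one.

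Tumor and naive samples were compared with limma 3.58.1 in R 4.3.3. The fit had a mean for each of the 8 groups and moderated variances (eBayes, prior df 3.19), with Benjamini-Hochberg adjustment over the 13057 genes tested and two-sided p-values. The methods name no array test, and their unpaired t-test was run as an alternative. An exact permutation test of 3 against 3 samples cannot go below 0.1 and was not used. The scripts were tested on simulated data. Precision is limited by the number of arrays.

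Replicate numbers were taken to pair samples where same-numbered tumor and naive samples deviated together in every pair at r above 0.1. LECs alone met this, with 0.2, 0.23 and 0.15. Each cell type lay on a slide of its own, with tumor and naive samples at different places of it, so that place and state cannot be told apart.

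The genes, roles, lists, markers and sequence words were chosen with earlier results of these data known. Named with full values are up to 8 of the 41 genes with the smallest adjusted p in each cell type, and up to 4 genes of other lists are named, with the genes of the count in the marker lists. None of the 4 red cell markers with a probe was called (1 was lower in FRCs and 1 higher in BECs at an unadjusted limma p under 0.05). Software was Python 3.11.15 with numpy 2.4.6, pandas 2.3.3, scikit-learn 1.9.0 and matplotlib 3.10.9.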

Additional observations from a re-analysis of the deposited data

Results flagged for a closer look

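For 2 genes the tumor-related change differed between cell types by the test of the difference itself. The change of *Pola2* in BECs minus that in DN cells was -1.39 ± 0.29 (SE, limma adjusted p = 0.037), and over 24 alternatives it lay between -1.65 and -1.12 with adjusted p between 0.0007 and 0.11, and lost the call in 16 of them. The change of *Mcm3* in LECs minus that in DN cells was -2.38 ± 0.49 (SE, limma adjusted p = 0.042), and over 24 alternatives it lay between -2.9 and -1.34 with adjusted p between 0.00012 and 0.17, and lost the call in 18 of them. Groups of 3 samples are too small for a test of single outlying samples.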

How the results depend on the processing

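Every median change of the 41 genes stayed above 0, and no named change turned its direction. The 8 genes named with full values in FRCs passed in all 168 values under alternatives, those in BECs in 160 of 176, in DN cells in 155 of 176 and in LECs in 131 of 168. The median change in FRCs was 1.26 with the mean of all kept probes, 1.23 with bead means without background correction and 1.3 with bead means after normexp. Fitting each cell type alone gave 14 called genes in BECs and 0 in DN cells. Array weights, whose estimation stopped before convergence, gave 25 called genes in LECs, and 8, 3, 5, 14, 7 and 3 genes whose changes differed for BECs minus FRCs, BECs minus LECs, BECs minus DN cells, LECs minus FRCs, LECs minus DN cells and FRCs minus DN cells. The methods' t-test without adjustment called 29 genes higher in LECs and 1 lower in BECs, and after Benjamini-Hochberg adjustment 29 higher in FRCs and 0 in BECs, LECs and DN cells. Both kinds of bead means gave 6 called genes in LECs. Without BEC tumor samples 1 and 2, 0 genes were called there and the median change was 0.91, and without DN tumor samples 1 and 2, 3 genes and 0.65. These last settings were chosen after seeing the data. Bead means without background correction gave *Mcm3* changes of 1.48 in FRCs and 1.85 in DN cells, *Cdc45* changes of 2 in BECs and 1.62 in LECs, *Gins1* changes of 1.22 in LECs, no longer called, and 1.78 in DN cells, *Gins2* 1.95 in BECs, *Cdc6* 1.74 in DN cells and *Mcm7* 1.18 in LECs, no longer called. With normexp *Mcm3* changed by 1.66 in FRCs, and without DN tumor samples 1 and 2 by 2.06 in DN cells. The cause of these shifts was not tested.

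The count of genes that differed for BECs minus DN cells and for LECs minus DN cells was 0 with values as deposited, strips centred on the median, strip 1 only, strip 2 only and both kinds of bead means, and for LECs minus DN cells also 0 without a filter on dim probes. With the replicate number as a block the counts of called genes were 28 in FRCs, 28 in BECs, 8 in LECs and 28 in DN cells, and 0 genes differed for either pair. LECs alone met the rule taken for pairing, with r between 0.15 and 0.23, and elsewhere samples share only a number. The main fit did not use this pairing.

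Leaving out single replicates gave 23 to 30 called genes in FRCs, 14 to 34 in BECs, 1 to 16 in LECs and 17 to 34 in DN cells, with median changes of 1.52 to 1.78, 1.35 to 1.82, 0.94 to 1.3 and 1.08 to 1.91. It gave 0 to 3 differing genes for BECs minus DN cells, 0 to 5 for LECs minus DN cells, 0 to 2 for LECs minus FRCs and 0 to 1 for FRCs minus DN cells. Signal near background limits *Gmnn*, *Pola1*, *Pole2*, *Slbp*, *Orc1* and *Prim1*, and *Rfc3* in DN cells.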
